A study of Mus musculus with 9 samples.

Results

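The genes described here encode the nuclear parts of respiratory complexes II to V: subunits, assembly factors and the electron carrier cytochrome c. Members were taken by symbol (Sdha to Sdhd, Sdhaf, Uqc, Cyc1, Cycs, Cox4 to Cox8 and Atp5 names, without pseudogenes), which gave 57 of the 46316 gene symbols in the table. Complex II had 8 members, complex III 12, cytochrome c 1, complex IV 19 and complex V 17. Bulk RNA-seq libraries came from islets of the mouse pancreas, in 3 groups of 3. The treated group held db/db mice that had received imeglimin together with metformin, both oral glucose-lowering drugs. The untreated db/db group carried the same genotype without drug, and the untreated db/+ group served as the genotype control. Db/db mice are homozygous for a leptin receptor mutation and become obese and diabetic, whereas db/+ mice carry it on a single chromosome. No group received either drug alone, so the drugs cannot be told apart. The sources used here give no dose, duration, age or sex and no number of mice per library. They do not say whether each library is a separate mouse, so the spread behind the p-values is that between libraries and may be technical.

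Complex II oxidises succinate and complex III passes electrons through cytochrome c to complex IV, which reduces oxygen, while complexes III and IV pump protons that drive the rotary ATP synthase, complex V. In beta cells the ATP made this way closes potassium channels and so couples glucose metabolism to insulin release. Several complex IV subunits exist as a widely expressed form and a form known from muscle, lung or testis, and the catalytic core of complex IV is encoded by mitochondrial DNA, whose protein genes were not analysed here.

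The member genes took 0.526%, 0.541% and 0.559% of all gene counts in treated db/db libraries, 0.555%, 0.54% and 0.525% in untreated db/db libraries, and 0.494%, 0.469% and 0.445% in db/+ libraries. Gene totals were between 10292667 and 15281806 counts. Levels are given as TMM-scaled CPM, counts brought to a common library size with a factor that corrects for a few very abundant transcripts. The TMM factors were 1.01 to 1.04, 1.04 to 1.17 and 0.815 to 0.980 in the treated db/db, untreated db/db and db/+ libraries. The summed level of 8 beta cell markers was 209284 to 233351 CPM in treated db/db, 152795 to 234410 CPM in untreated db/db and 247211 to 447661 CPM in db/+ islets, with none of the 8 at 0. The sums of 2 delta cell markers (1761 to 2919.8 CPM in treated db/db, 2650.04 to 3732 CPM in untreated db/db and 4370.4 to 6638 CPM in db/+ islets) and of 4 endothelial markers (186 to 207, 208 to 269 and 288 to 311 CPM) were also lower in every db/db library than in any db/+ library. Not every marker followed its sum. Of the delta markers Sst did, while Hhex overlapped between db/db and db/+ libraries. Of the endothelial markers Kdr and Tie1 did, while Pecam1 and Cdh5 overlapped between untreated db/db and db/+ libraries. Pecam1 had 87.0, 66.8 and 92.1 CPM in untreated db/db and 82.8, 82.7 and 77.3 CPM in db/+ islets. The beta sum was mostly Ins1 and Ins2. Ins1, Mafa, Pdx1, Slc2a2 and Ucn3 followed it. Mafa had 508.8 to 555.1 CPM in db/+ islets and at most 37.5 CPM in db/db libraries. Ins2 overlapped between db/db and db/+ libraries, and Nkx6-1 between treated db/db and db/+ libraries. Iapp went the other way. It had 39059.7 to 41930.6 CPM in treated db/db, 30598.6 to 39186 CPM in untreated db/db and 9561.42 to 18999 CPM in db/+ islets. Within the db/+ group the libraries stood apart: replicate 1 had the highest level in 46 of 52 tested members and replicate 3 the lowest in 44, and the beta marker sum had the same order (447661, 339736 and 247211 CPM). The sum of 11 lymphocyte markers was 3.35 to 6.41 CPM in treated db/db islets, 315, 48.6 and 33.4 CPM in untreated db/db islets and 10.9 to 15.7 CPM in db/+ islets, so every untreated db/db library lay above all others. The sum of 15 acinar markers was 107 to 387 CPM in treated db/db islets, 2249, 252 and 1264.5 CPM in untreated db/db islets and 1.94 to 93.1 CPM in db/+ islets. Untreated db/db replicate 1, highest in both sums, had the lowest level of its group in 39 of 52 members. The part of these library differences in the results was not tested beyond the values without each library given below.

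Nuclear genes of the respiratory chain are known targets of the transcription factors NRF1 and GABP (an ETS family factor), and their core motifs were therefore looked for in RefSeq promoters (GRCm38.p6, 250 bases before each gene start). A promoter was found for 44 of the 57 members. Shares are set against promoters of all genes, which include genes not tested here. No share was taken over expressed genes or over promoters of like GC content. The NRF1 motif (GCGC, any 2 bases, GCGC, on either strand) stood in 8 of these 44 promoters (18.2%), against 5.64% of 27025 promoters of all genes, and the ETS motif CCGGAAG, on either strand, in 11 (25%), against 7.83%. Windows of 60 bases from 6 of these promoters, read 5′ to 3′ on the gene's strand, are shown because they come from members that were higher and members that were lower in untreated db/db islets; capitals mark the motif.
Sdha (chr13:74350241-74350300, minus strand), higher, NRF1 motif: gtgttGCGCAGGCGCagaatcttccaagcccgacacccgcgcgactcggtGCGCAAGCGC
Cox6a1 (chr5:115349041-115349100, minus strand), higher, NRF1 motif: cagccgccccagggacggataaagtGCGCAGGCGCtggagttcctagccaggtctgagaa
Uqcc2 (chr17:27133905-27133964, minus strand), lower, NRF1 motif: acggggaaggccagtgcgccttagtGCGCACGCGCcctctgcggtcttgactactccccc
Atp5k (chr5:108434415-108434474, minus strand), lower, NRF1 motif: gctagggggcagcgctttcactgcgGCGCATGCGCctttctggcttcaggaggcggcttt
Cox6b1 (chr7:30626115-30626174, minus strand), higher, ETS motif on the other strand: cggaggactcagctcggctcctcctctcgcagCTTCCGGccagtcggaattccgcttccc
Atp5e (chr2:174464171-174464230, minus strand), lower, ETS motif on the other strand: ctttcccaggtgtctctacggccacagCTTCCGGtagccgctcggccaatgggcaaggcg
The NRF1 motif was found in 2 of 15 promoters of members called higher in untreated db/db islets, 2 of 11 called lower and 4 of 14 not called. For the ETS motif these counts were 4 of 15, 3 of 11 and 4 of 14. A match describes the letters in the window and is not evidence of a bound site, and the motif was found beside calls in either direction.

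Between untreated db/db and db/+ islets, members of every complex moved in opposite directions. Among the genes with the largest increases were Sdhaf3, Atp5md, Uqcrc2, Cox7c and Cycs, and the largest decreases were those of Cox6a2, Cox4i2, Atp5d, Uqcc2, Atp5e and Cyc1. Genes were called at an adjusted p under 0.05 from edgeR's quasi-likelihood test over 16761 tested genes, and fold changes are log2 values ± SE. Of the 57 members 52 passed the filter on low counts; Cox6b2, Cox7a1, Cox7b2, Cox8b and Cox8c did not. In untreated db/db islets 19 of the 52 were called higher and 16 lower than in db/+ islets, while 63.3% of all tested genes were called (31.3% higher and 32% lower). In treated db/db islets 22 were called higher and 14 lower than in db/+ islets, while 65.2% of all genes were called (32.8% higher and 32.5% lower). The members' shares of 67.3% and 69.2% called were thus near the share of all genes. Their median log2 fold change was 0.06 for untreated db/db over db/+ and 0.15 for treated db/db over db/+, against 0.02 and 0.02 over all tested genes. All libraries of untreated db/db islets lay above all db/+ libraries in 16 members and below them in 17, against 33% and 34% of all genes. For treated db/db and db/+ islets these counts were 20 and 14, against 35.7% and 35.2% of all genes. These comparisons share the db/+ libraries. Without db/+ replicate 1 the counts became 27 higher and 11 lower in untreated db/db, and 28 higher and 11 lower in treated db/db islets. Of all 17408 genes tested there, 10778 and 11089 were called. Without db/+ replicate 2 the members' counts (53 tested) were 15 and 15 in untreated db/db, and 15 and 14 in treated db/db islets. Of all 17232 genes, 9617 and 10083 were called. Without untreated db/db replicate 1, the library with the most lymphocyte and acinar RNA, 18 of 53 members were called higher and 16 lower in untreated db/db islets. Of all 17223 genes, 10336 were called. These all-gene counts are not split by direction here. Fewer cells of a type and less RNA per cell cannot be told apart in bulk islets.

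**Figure D1:**
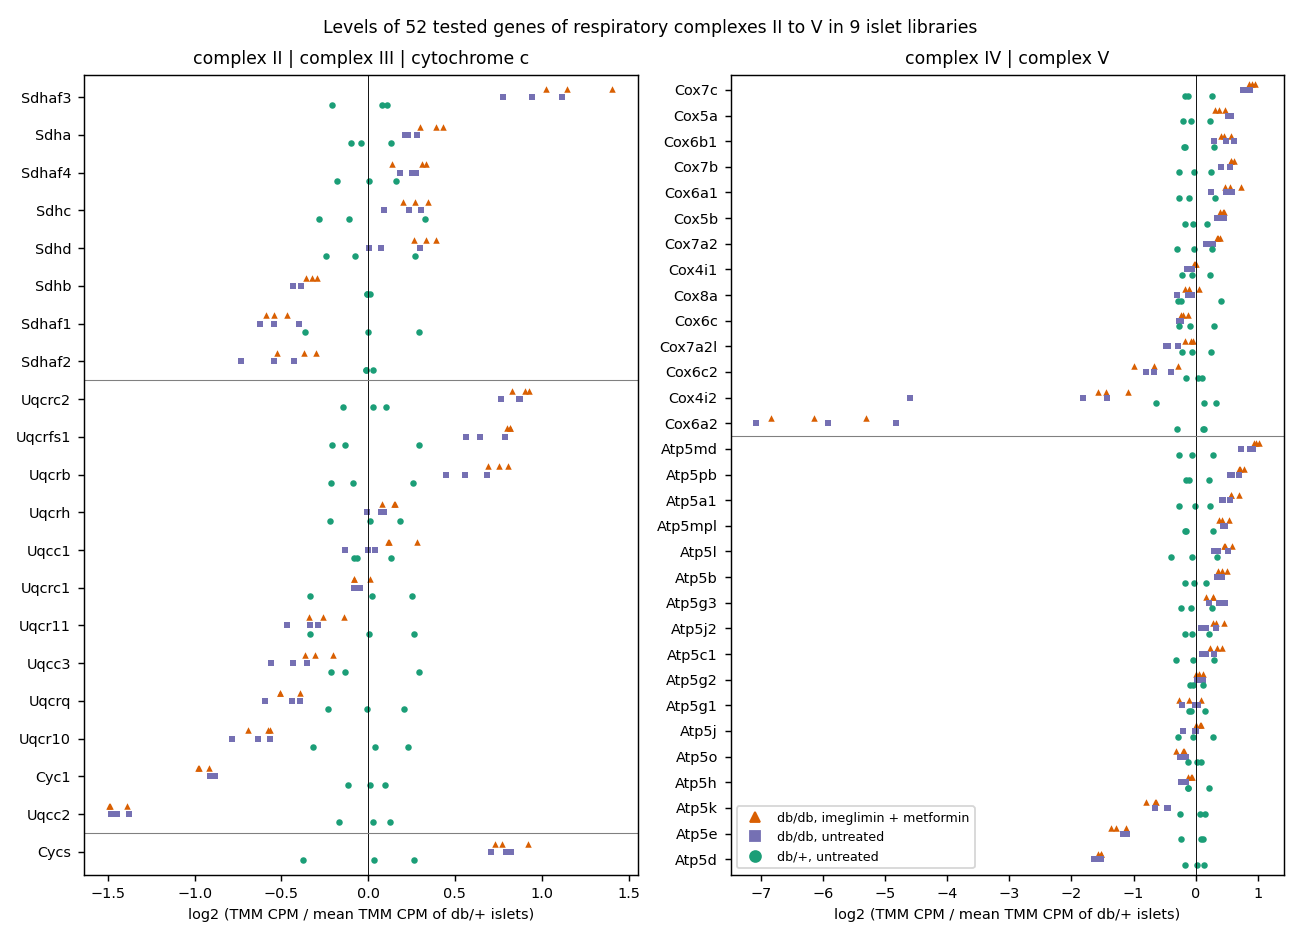
Level of each of the 52 tested members in the 9 libraries, as log2 of its TMM CPM over the mean of db/+ islets (x axis), ordered within each complex by the untreated db/db over db/+ change. Triangles are treated db/db, squares untreated db/db and circles db/+ libraries; in most members the triangles and squares lie together, and Cox6a2 lies farthest from the db/+ libraries.

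Complex II, succinate dehydrogenase, was split between its catalytic subunits. Sdha, the flavoprotein that oxidises succinate, had 189.8, 178 and 196 CPM in treated db/db islets, 170.1, 176 and 168 CPM in untreated db/db islets, and 159, 141 and 136 CPM in db/+ islets. Its libraries of treated and of untreated db/db islets all lay above those of db/+ islets, with log2 fold changes of 0.37 ± 0.09 for treated db/db over db/+ (adjusted p = 0.0034, edgeR) and 0.24 ± 0.09 for untreated db/db over db/+ (adjusted p = 0.0376). Sdhb, the iron-sulfur subunit that takes the electrons from Sdha, had 47.7, 46.8 and 45.6 CPM in treated db/db islets, 44.7, 44.7 and 43.4 CPM in untreated db/db islets, and 59.0, 58.3 and 58.3 CPM in db/+ islets. All 6 db/db libraries lay below the db/+ libraries, whose own range was narrow, and the fold changes were -0.33 ± 0.08 (adjusted p = 0.00241, edgeR) for treated db/db and -0.40 ± 0.08 (adjusted p = 0.000609) for untreated db/db islets. The count ratio of Sdhb to Sdha was 0.249 ± 0.0150 in treated db/db, 0.258 ± 0.00453 in untreated db/db and 0.405 ± 0.0300 in db/+ islets (SD, n = 3 each). The exact permutation test gave p = 0.1 for either db/db group against db/+, the smallest value 3 against 3 libraries allow (0.133 after adjustment over 24 tests of 8 ratios). Most of the 8 ratios pair a member called higher with one called lower in these same libraries. Their separation from db/+ therefore adds no support to those calls, and the adjustment does not cover this choice. A ratio of 2 genes of the same library does not depend on library scaling.

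The membrane anchors Sdhc and Sdhd, which pass electrons on to ubiquinone, were not called in untreated db/db islets (0.21 and 0.13). Sdhd was called higher in treated db/db over db/+ (0.33 ± 0.13, adjusted p = 0.0343, edgeR), although treated and db/+ libraries overlapped and the call was lost in 6 of 17 alternative settings, among them without db/+ replicate 2, db/+ replicate 3, treated replicate 2 or treated replicate 3 (adjusted p up to 0.169). The Sdha call in untreated db/db islets was lost in 7 of 17, including without db/+ replicate 2 and without each untreated db/db replicate in turn (adjusted p up to 0.0879). Among assembly factors, Sdhaf3, which helps mature the iron-sulfur subunit, was the member with the largest increase. Its transcript rows differed (lowest to highest total 0.742), and the one used had 4.87, 3.73 and 4.06 CPM in treated db/db islets, 3.14, 3.53 and 3.98 CPM in untreated db/db islets, and 1.98, 1.94 and 1.59 CPM in db/+ islets, with every db/db library above every db/+ library and log2 fold changes of 1.196 in treated and 0.95 in untreated db/db islets. Sdhaf1, also a factor for iron-sulfur insertion, and Sdhaf2, which attaches the flavin to Sdha, were lower in treated db/db (-0.53 and -0.40) and in untreated db/db islets (-0.52 and -0.56). The Sdhaf1 call in either comparison was lost without db/+ replicate 1 (adjusted p up to 0.139 in untreated db/db islets). Sdhaf4 was not called (log2 fold change 0.24 in untreated db/db islets). Sdhaf2 overlaps Cpsf7 on the other strand, which was also lower in untreated db/db islets (-0.52).

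In complex III the electron-carrying subunits moved apart. Cyc1, the cytochrome c1 that hands electrons to cytochrome c, had 46.8, 45.1 and 44.9 CPM in treated db/db islets, 47.1, 47.1 and 48.0 CPM in untreated db/db islets, and 81.9, 94.6 and 89.3 CPM in db/+ islets. Every db/db library held about the same level and lay below every db/+ library, with fold changes of -0.96 ± 0.08 in treated db/db (adjusted p = 8.23e-07, edgeR) and -0.90 ± 0.08 in untreated db/db islets (adjusted p = 1.69e-06). Uqcrfs1, the Rieske iron-sulfur protein that reduces Cyc1, had 70.3, 71.3 and 71.3 CPM in treated db/db islets, 59.8, 69.9 and 63.3 CPM in untreated db/db islets, and 49.5, 35.0 and 36.8 CPM in db/+ islets. The db/db libraries lay above the db/+ libraries, with fold changes of 0.81 ± 0.12 (adjusted p = 7.57e-05, edgeR) in treated and 0.67 ± 0.12 (adjusted p = 0.000403) in untreated db/db islets. The Cyc1 to Uqcrfs1 count ratio was 0.643 ± 0.0202 in treated db/db, 0.740 ± 0.0589 in untreated db/db and 2.26 ± 0.544 in db/+ islets (SD, n = 3 each), and in none of the 3 pairs of groups did the libraries overlap. The exact permutation p was 0.1 for each pair, the smallest possible, and against db/+ these genes were already called in opposite directions.

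Of the core proteins that hold the complex together, Uqcrc2 rose and Uqcrc1 was not called. Uqcrc2 had 102, 97.3 and 104 CPM in treated db/db islets, 93.3, 100.2 and 100.5 CPM in untreated db/db islets, and 59.0, 49.5 and 56.0 CPM in db/+ islets, with all db/db libraries above all db/+ libraries (log2 fold change 0.89 ± 0.09 in treated and 0.84 ± 0.09 in untreated db/db islets). Uqcrc1 had 70.7, 70.6 and 75.2 CPM in treated db/db islets, 72.4, 72.4 and 70.7 CPM in untreated db/db islets, and 89.0, 76.1 and 59.3 CPM in db/+ islets, and its db/db libraries lay inside the range of the db/+ libraries (-0.06 in untreated db/db, 95% interval -0.32 to 0.21). Of the small subunits, Uqcrb, next to the ubiquinone site, rose (0.75 in treated and 0.57 in untreated db/db islets), while Uqcr10 (-0.61 and -0.66) and Uqcrq (-0.47 and -0.47) fell in both. Uqcr11 was lower in untreated db/db islets (-0.36 ± 0.13, adjusted p = 0.0284, edgeR), but 1 db/+ library lay among the db/db libraries. That call was lost in 9 of 17 alternative settings, without db/+ replicate 1, db/+ replicate 2, untreated db/db replicate 1 or untreated db/db replicate 2 among them (adjusted p up to 0.342). The hinge protein gene Uqcrh was not called (0.13 in treated and 0.06 in untreated db/db islets).

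The assembly factor Uqcc2, needed with Uqcc1 for cytochrome b, had the largest decrease in complex III. Uqcc2 had 72.1, 67.0 and 67.3 CPM in treated db/db islets, 67.7, 69.3 and 72.7 CPM in untreated db/db islets, and 206, 192 and 168 CPM in db/+ islets. No db/db library reached the lowest db/+ library, and the log2 fold changes were -1.46 ± 0.10 in treated db/db (adjusted p = 1.22e-07, edgeR) and -1.43 ± 0.10 in untreated db/db islets (adjusted p = 1.88e-07). Its partner Uqcc1 was not called, with log2 fold changes of 0.17 and -0.03. The rows of its transcripts differed (lowest to highest total 0.323), so the row used stands for only some of them. Uqcc3, an early assembly factor, was lower in untreated db/db islets (-0.45, adjusted p = 0.0111, edgeR) and not called in treated ones (-0.29); the call was lost without db/+ replicate 1 and without untreated db/db replicate 3 (adjusted p up to 0.149). Counted by complex, 3 of 12 complex III members were called higher and 6 lower in untreated db/db, and 3 higher and 4 lower in treated db/db islets, against 31.3% and 32% of all genes in untreated db/db and 32.8% and 32.5% in treated db/db islets. Cycs, the soluble carrier between complexes III and IV, had 48.7, 54.0 and 47.4 CPM in treated db/db islets, 46.6, 49.5 and 50.6 CPM in untreated db/db islets, and 34.3, 29.3 and 22.04 CPM in db/+ islets. All db/db libraries were above the db/+ libraries, with log2 fold changes of 0.81 in treated and 0.78 in untreated db/db islets. The Cycs to Cyc1 count ratio was 1.10 ± 0.0871, 1.03 ± 0.0356 and 0.325 ± 0.0874 in treated db/db, untreated db/db and db/+ islets (SD, n = 3 each).

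**Figure D2:**
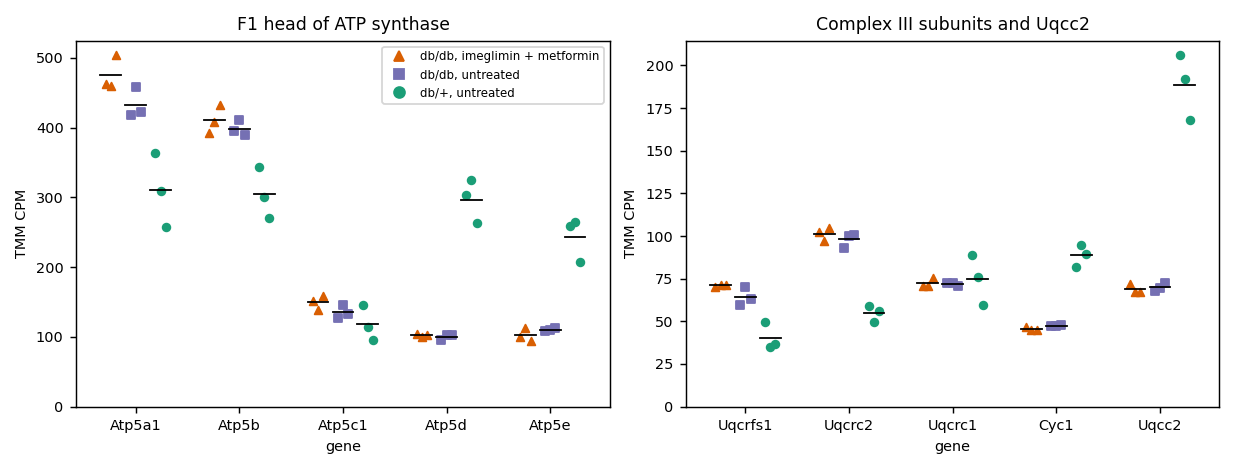
TMM CPM (y axis, linear from 0) of the F1 subunits of ATP synthase and of complex III genes in each library, with treated db/db (triangles), untreated db/db (squares) and db/+ (circles); lines are means of 3 libraries. Atp5d, Atp5e, Cyc1 and Uqcc2 lie higher in every db/+ library than in any db/db library, while Atp5a1, Atp5b, Uqcrfs1 and Uqcrc2 lie lower there; levels of different genes are not scaled by length.

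Complex IV showed the largest single difference of all members. Cox6a2, the heart and skeletal muscle form of subunit 6A, had 5.50, 1.896 and 3.10 CPM in treated db/db islets, 1.61, 3.59 and 7.68 CPM in untreated db/db islets, and 238, 239 and 178 CPM in db/+ islets. The lowest db/+ library was far above the highest db/db library, and treated and untreated db/db libraries overlapped. The log2 fold change was -5.98 ± 0.53 for treated db/db (adjusted p = 5.5e-05, edgeR) and -5.67 ± 0.52 for untreated db/db over db/+ islets (adjusted p = 7.63e-05). Cox6a1, the widely expressed form, had 158, 149 and 179 CPM in treated db/db islets, 127, 160.4 and 151 CPM in untreated db/db islets, and 133, 99.6 and 89.2 CPM in db/+ islets. It was called higher in treated db/db (0.59 ± 0.15, adjusted p = 0.00325, edgeR) and in untreated db/db islets (0.45 ± 0.15, adjusted p = 0.0173), where 1 db/+ library overlapped and the call was lost without db/+ replicate 2 or without untreated db/db replicate 2 (adjusted p up to 0.0589).

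Per kilobase of transcript, Cox6a2 took 1.73% ± 0.916, 2.26% ± 1.53 and 62.5% ± 3.48 of the Cox6a1 and Cox6a2 sum in treated db/db, untreated db/db and db/+ islets (SD, n = 3 each). The exact permutation p for either db/db group against db/+ was 0.1, the smallest possible, and 0.225 after adjustment over 27 tests of 9 shares. The sum itself was 306 ± 29.1, 279 ± 34.7 and 531 ± 87.7 CPM per kilobase in treated db/db, untreated db/db and db/+ islets, with every db/db library below every db/+ library. Among the 57 members Cox6a2 ranked 50 in treated db/db, 49 in untreated db/db and 4 in db/+ islets by mean CPM per kilobase. The 10 striated muscle markers together held 5.06 to 7.61 CPM in every library, with Myh1, Myh2 and Myh4 at 0, and their sum was no higher in db/+ (5.06 to 5.71 CPM) than in treated (6.28 to 7.61 CPM) or untreated db/db islets (5.69 to 6.36 CPM). Acta1 alone held 4.37 to 7.55 CPM and was the only one of the 10 to pass the low-count filter, so the sum compares mainly that gene. Cox6a2 overlaps Itgad on the other strand, which held 0 reads in all db/db libraries and 4, 2 and 3 reads in db/+ libraries.

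**Figure D3:**
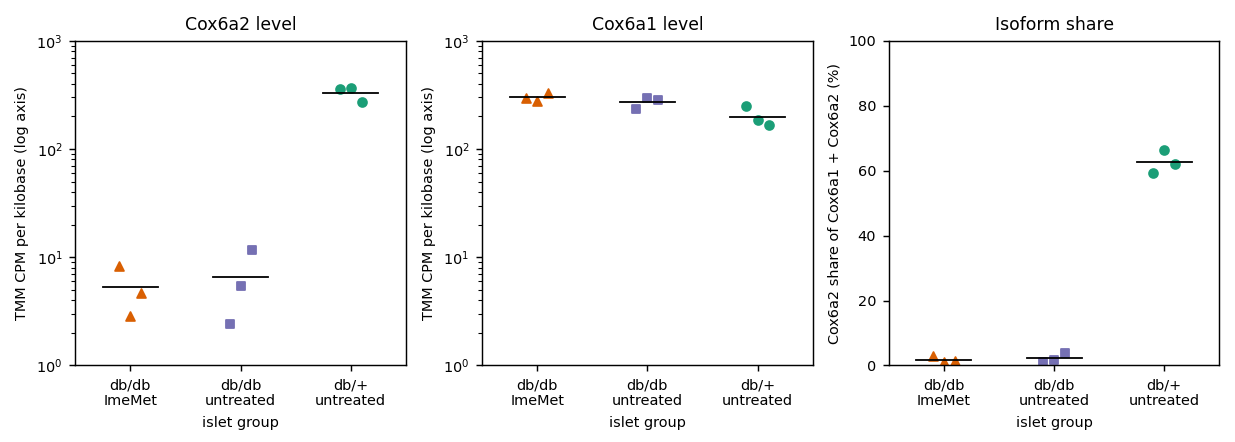
Cox6a2 and Cox6a1 in TMM CPM per kilobase (log axes, left and centre) and the Cox6a2 share of their sum in percent (right), by library; lines are means of 3 libraries per group. Cox6a2 takes 59.3% to 66.2% of the sum in db/+ libraries and 1.02% to 3.98% in the 6 db/db libraries.

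The other tissue-restricted forms of complex IV held few reads in any group. Cox4i2, a form known from lung, had 8, 11 and 8 reads in treated db/db libraries, 6, 1 and 8 in untreated db/db libraries and 10, 19 and 17 in db/+ libraries. It was called lower in treated db/db (-1.34 ± 0.50, adjusted p = 0.0298, edgeR) and in untreated db/db islets (-2.11 ± 0.54, adjusted p = 0.0042), and the treated call was lost in 8 of 17 settings, including without each treated replicate in turn and without db/+ replicate 2 or 3 (adjusted p up to 0.11). Cox4i1, its widely expressed partner, was not called, with 226, 223 and 228 CPM in treated db/db islets, 207, 218 and 218 CPM in untreated db/db islets, and 267, 218 and 196 CPM in db/+ islets. Of the forms that were not tested, Cox7a1, known from muscle, had 7, 8 and 5 reads in treated db/db libraries, 6, 1 and 5 in untreated db/db libraries and 12, 7 and 11 in db/+ libraries. Cox7b2, known from testis, had 6, 10 and 6 reads in treated db/db libraries, 6, 5 and 1 in untreated db/db libraries and 0, 1 and 0 in db/+ libraries. Cox6b2, also a testis form, had 0, 2 and 0 reads in treated db/db libraries, 5, 6 and 5 in untreated db/db libraries and 2, 4 and 4 in db/+ libraries. Cox8b held 0 reads in treated db/db libraries, 1 in untreated db/db and 4 in db/+ libraries in all, and Cox8c held 0 in every library. Totals this low do not allow a comparison beyond the counts themselves.

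Of all 14 tested complex IV members 7 were called higher and 3 lower in treated db/db, and 6 higher and 4 lower in untreated db/db islets. Among the 10 widely expressed subunits 7 were called higher in treated db/db and 6 in untreated db/db islets, and none lower. Of all genes 32.8% and 31.3% were called higher, and 32.5% and 32% lower. Cox7c, a small subunit, had 85.6, 83.4 and 88.6 CPM in treated db/db islets, 84.1, 77.4 and 80.8 CPM in untreated db/db islets, and 54.9, 42.1 and 40.5 CPM in db/+ islets. All db/db libraries lay above all db/+ libraries, with log2 fold changes of 0.91 ± 0.11 in treated (adjusted p = 1.38e-05, edgeR) and 0.82 ± 0.11 in untreated db/db islets (adjusted p = 3.98e-05). Cox5a, which forms part of the matrix face, had 32.3, 31.1 and 34.5 CPM in treated db/db islets, 36.9, 36.0 and 35.9 CPM in untreated db/db islets, and 29.3, 23.8 and 21.7 CPM in db/+ islets. Its untreated db/db libraries were the highest, treated libraries lay between, and db/+ libraries were the lowest (0.39 in treated and 0.54 in untreated db/db over db/+). Cox5b (0.43 and 0.40), Cox6b1 (0.48 and 0.48) and Cox7b (0.59 and 0.46) were called higher in treated and in untreated db/db islets. Cox7a2 was called in treated db/db over db/+ (0.37) and not in untreated db/db over db/+ (0.22), but was not called in the direct comparison of the db/db groups (0.15, adjusted p = 0.524, edgeR). Without db/+ replicate 2 the treated calls of Cox5a, Cox6b1 and Cox7a2 were lost, that of Cox7a2 also without db/+ replicate 3 (adjusted p up to 0.0578, 0.0559 and 0.0732). Cox4i1, Cox6c and Cox8a were not called in either comparison. How reads with several alignments were counted is not given in the sources used here, so genes with close copies are uncertain.

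A further pair of complex IV members was lower in untreated db/db islets. Cox7a2l, which joins complexes III and IV into supercomplexes, had 297, 279 and 305 CPM in treated db/db islets, 226, 259 and 232 CPM in untreated db/db islets, and 372, 301 and 269 CPM in db/+ islets. Untreated db/db libraries were the lowest (-0.39 ± 0.12, adjusted p = 0.0132, edgeR), while treated and db/+ libraries overlapped (-0.10, adjusted p = 0.507). The call in untreated db/db islets was lost without db/+ replicate 1 or untreated db/db replicate 3 (adjusted p up to 0.102). Cox6c2, a locus named for its likeness to Cox6c, was called lower in treated and untreated db/db islets (-0.62 and -0.62), yet lost the call in 12 and 14 of 17 settings, without db/+ replicate 1 and without db/+ replicate 3 in either case (adjusted p up to 0.176 and 0.177).

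ATP synthase was split within its catalytic F1 head. Atp5d, the delta subunit of the central stalk, had 103, 99.6 and 103 CPM in treated db/db islets, 95.8, 103 and 102 CPM in untreated db/db islets, and 303, 325 and 263 CPM in db/+ islets. The db/db libraries lay in a narrow band far below the db/+ libraries, with log2 fold changes of -1.54 ± 0.10 in treated (adjusted p = 1.08e-07, edgeR) and -1.56 ± 0.10 in untreated db/db islets (adjusted p = 1.29e-07). Atp5e, the epsilon subunit that sits beside it, had 99.7, 112 and 94.7 CPM in treated db/db islets, 108, 109.5 and 113 CPM in untreated db/db islets, and 259, 265 and 208 CPM in db/+ islets. No db/db library reached the db/+ libraries (-1.25 ± 0.11 in treated and -1.15 ± 0.11 in untreated db/db islets). Atp5b, the catalytic beta subunit, had 392, 408 and 432 CPM in treated db/db islets, 395, 411 and 389 CPM in untreated db/db islets, and 344, 301 and 269.8 CPM in db/+ islets. Its libraries were ordered the other way, all db/db above all db/+ (0.43 ± 0.11, adjusted p = 0.00359, edgeR, in treated and 0.39 ± 0.11, adjusted p = 0.00736, in untreated db/db islets).

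Atp5a1, the alpha subunit that alternates with beta in the head, had 463, 460.2 and 504 CPM in treated db/db islets, 418, 458 and 422 CPM in untreated db/db islets, and 363, 309.6 and 258 CPM in db/+ islets. It too was above db/+ in every db/db library (0.62 in treated and 0.48 in untreated db/db islets). Atp5c1, the gamma shaft, was called higher in treated db/db (0.34 ± 0.13, adjusted p = 0.0422, edgeR) and not in untreated db/db islets (0.19), with overlap in both; the treated call was lost in 6 of 17 settings, without db/+ replicate 2 or 3 and without treated replicate 1 or 3 among them (adjusted p up to 0.197). The Atp5d to Atp5b count ratio was 0.249 ± 0.0135 in treated db/db, 0.252 ± 0.0102 in untreated db/db and 0.978 ± 0.1004 in db/+ islets, and the Atp5e to Atp5b ratio was 0.250 ± 0.0285, 0.276 ± 0.0120 and 0.800 ± 0.0703 (SD, n = 3 each). For each ratio the exact permutation p against db/+ was 0.1, the smallest possible, for genes already called in opposite directions. By mean CPM per kilobase Atp5e ranked 8, 5 and 1 among the 57 members in treated db/db, untreated db/db and db/+ islets, and Atp5md ranked 1, 2 and 14. Atp5d overlaps Cbarp on the other strand, and Cbarp was also lower in treated (-1.22) and untreated db/db islets (-1.28). The libraries preserve strand, but the strand setting of the counting is not given in the sources used here, so the reads of that pair cannot be told apart. Atp5e has no such overlap in the annotation used. Exons of further members also overlap a gene on the other strand, Atp5a1, Atp5j, Cox4i1 and Cox6c among them. In untreated db/db over db/+ their partners had log2 fold changes of 0.56 for Haus1, 1.25 for Gabpa, -0.60 for Emc8 and 0.45 for Vps13b, all called. Levels of these members are uncertain in the same way. Uqcrc2 overlaps Pdzd9 and Uqcrb overlaps Gm10767 on the other strand, and neither partner was called in treated or untreated db/db over db/+.

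The remaining complex V genes were mostly higher or not called. Of the membrane subunits around the proton channel, Atp5md had 122, 124 and 128 CPM in treated db/db islets, 105, 119 and 115 CPM in untreated db/db islets, and 76.6, 60.3 and 52.3 CPM in db/+ islets. All db/db libraries were above all db/+ libraries (0.98 ± 0.12 in treated, adjusted p = 1.72e-05, edgeR, and 0.85 ± 0.12 in untreated db/db islets, adjusted p = 7.08e-05). Atp5mpl (0.45 in treated and 0.46 in untreated db/db islets) and Atp5l (0.51 and 0.39) were called higher in both, and Atp5j2 was called in treated (0.35) and not in untreated db/db islets (0.19). Atp5k, subunit e of the dimer interface, was the only membrane subunit called lower, with 26.2, 25.8 and 23.5 CPM in treated db/db islets, 29.5, 25.8 and 29.95 CPM in untreated db/db islets, and 45.1, 42.8 and 34.5 CPM in db/+ islets. Its db/db libraries all lay below the db/+ libraries (-0.70 in treated and -0.52 in untreated db/db islets). The Atp5l call in treated db/db islets was lost without db/+ replicate 2 (adjusted p = 0.0584, edgeR). The Atp5l call in untreated db/db islets was lost in 7 of 17 settings and the Atp5j2 call in 3, in each case without db/+ replicate 2 and without db/+ replicate 3 among others (adjusted p up to 0.112 and 0.0793).

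In the peripheral stalk, which holds the head still, Atp5pb rose (0.73 in treated and 0.61 in untreated db/db islets). Atp5pb had 149, 147 and 156 CPM in treated db/db islets, 133, 148 and 136 CPM in untreated db/db islets, and 106, 81.9 and 84.3 CPM in db/+ islets, with no overlap between db/db and db/+ libraries. Atp5h and Atp5j were not called (-0.19 and -0.06 in untreated db/db islets). Atp5o, which joins the stalk to the head, was called lower in treated db/db over db/+ (-0.23, adjusted p = 0.0317, edgeR) and not in untreated db/db islets (-0.19), and the call was lost in 10 of 17 settings, without db/+ replicate 1 and without each treated replicate in turn among them (adjusted p up to 0.148). In the annotation used, Atp5o overlaps Donson on the same strand, so strand does not separate their reads. Donson was called lower in treated db/db over db/+ (-0.50, adjusted p = 0.0418, edgeR) and not called in untreated db/db over db/+ (-0.24). The proton-driven ring is built from subunit c, whose identical mature protein is made by Atp5g1, Atp5g2 and Atp5g3. Per kilobase, Atp5g1 supplied 38.9% ± 2.95, 38.7% ± 1.41 and 42.8% ± 0.686 of their sum in treated db/db, untreated db/db and db/+ islets, and Atp5g3 25.5% ± 2.27, 26.6% ± 0.778 and 22.04% ± 1.64 (SD, n = 3 each). The exact permutation p of these shares against db/+ was 0.1 or 0.2 (0.225 or 0.386 after adjustment). Of the 3 genes, Atp5g3 was called in untreated db/db islets (0.35 ± 0.12, adjusted p = 0.0242, edgeR), with overlapping libraries, and the call was lost without db/+ replicate 2 or 3 and without untreated db/db replicate 2 or 3 (adjusted p up to 0.0812).

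Summed over the subunit genes of a complex, untreated db/db and db/+ libraries overlapped in every complex, and treated db/db libraries lay above all db/+ libraries in complex II alone of the 4. Complex III summed to 818 ± 18.8 CPM in treated db/db, 781 ± 39.2 in untreated db/db and 852 ± 119 in db/+ islets (9 genes, SD, n = 3 each). Complex V summed to 2422 ± 78.9, 2308 ± 105 and 2249.5 ± 307 CPM over 17 genes. The sums of complex II were 375 ± 13.1, 344 ± 15.2 and 317 ± 35.9 CPM over 4 genes. The 10 widely expressed complex IV genes summed to 1139 ± 28.6, 1078 ± 50.7 and 959 ± 189 CPM, and with the tissue-restricted forms the sums were 1144 ± 28.3, 1083.5 ± 52.4 and 1181 ± 213 CPM. The untreated db/db to db/+ difference of each sum was smaller than the SD of the db/+ libraries, and every ratio depended on library scaling. With no scaling factor the log2 ratio of untreated db/db to db/+ was 0.39 for complex II, 0.16 for complex III, 0.45 for complex IV and 0.32 for complex V. With TMM factors these ratios were 0.12, -0.13, 0.17 and 0.04, so that of complex III changed sign.

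No member was called between treated and untreated db/db islets, while 0.179% of all tested genes were called (30 of 16761). The members called were also 0 with DESeq2, which called 630 of all genes, and with limma voom, which called 10. At an unadjusted p under 0.05 there was 1 member of 52, Cox7a2l, against 17.4% of all genes. The Cox7a2l log2 fold change was 0.30 ± 0.12 (95% interval 0.03 to 0.56, adjusted p = 0.243, edgeR), with treated libraries at 297, 279 and 305 CPM and untreated db/db libraries at 226, 259 and 232 CPM, without overlap. The treated libraries lay entirely above the untreated db/db libraries in 13 members and entirely below in 2, against 19% and 8.54% of all genes. The median log2 fold change was 0.07 over the members and 0.07 over all genes.

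The size of an effect these libraries could have missed is given by the intervals. For 49 of 52 members the 95% interval of the treated to untreated db/db fold lay within 1.5-fold in either direction. The exceptions were Sdhaf3 (log2 interval -0.23 to 0.73), Cox6a2 (-1.73 to 1.12) and Cox4i2 (-0.48 to 2.02), all of low level in db/db islets. Cox6a2, Cox4i2 and Sdhaf3 were also those with the largest decreases and the largest increase in untreated db/db over db/+ islets. Other members with large differences there had narrower intervals: -0.19 to 0.24 for Atp5d, -0.23 to 0.18 for Uqcc2, -0.24 to 0.13 for Cyc1 and -0.14 to 0.24 for Uqcrc2. For Cox6a2 the treated libraries held 5.50, 1.896 and 3.10 CPM and the untreated db/db libraries 1.61, 3.59 and 7.68 CPM, against 238, 239 and 178 CPM in db/+ islets, so all treated libraries lay far below db/+, while the interval between the db/db groups was wide. The Cyc1 to Uqcrfs1 ratio was lower in every treated than in every untreated db/db library (exact permutation p = 0.1, 0.133 after adjustment), and for the Atp5d to Atp5b ratio the p was 0.8.

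**Figure D4:**
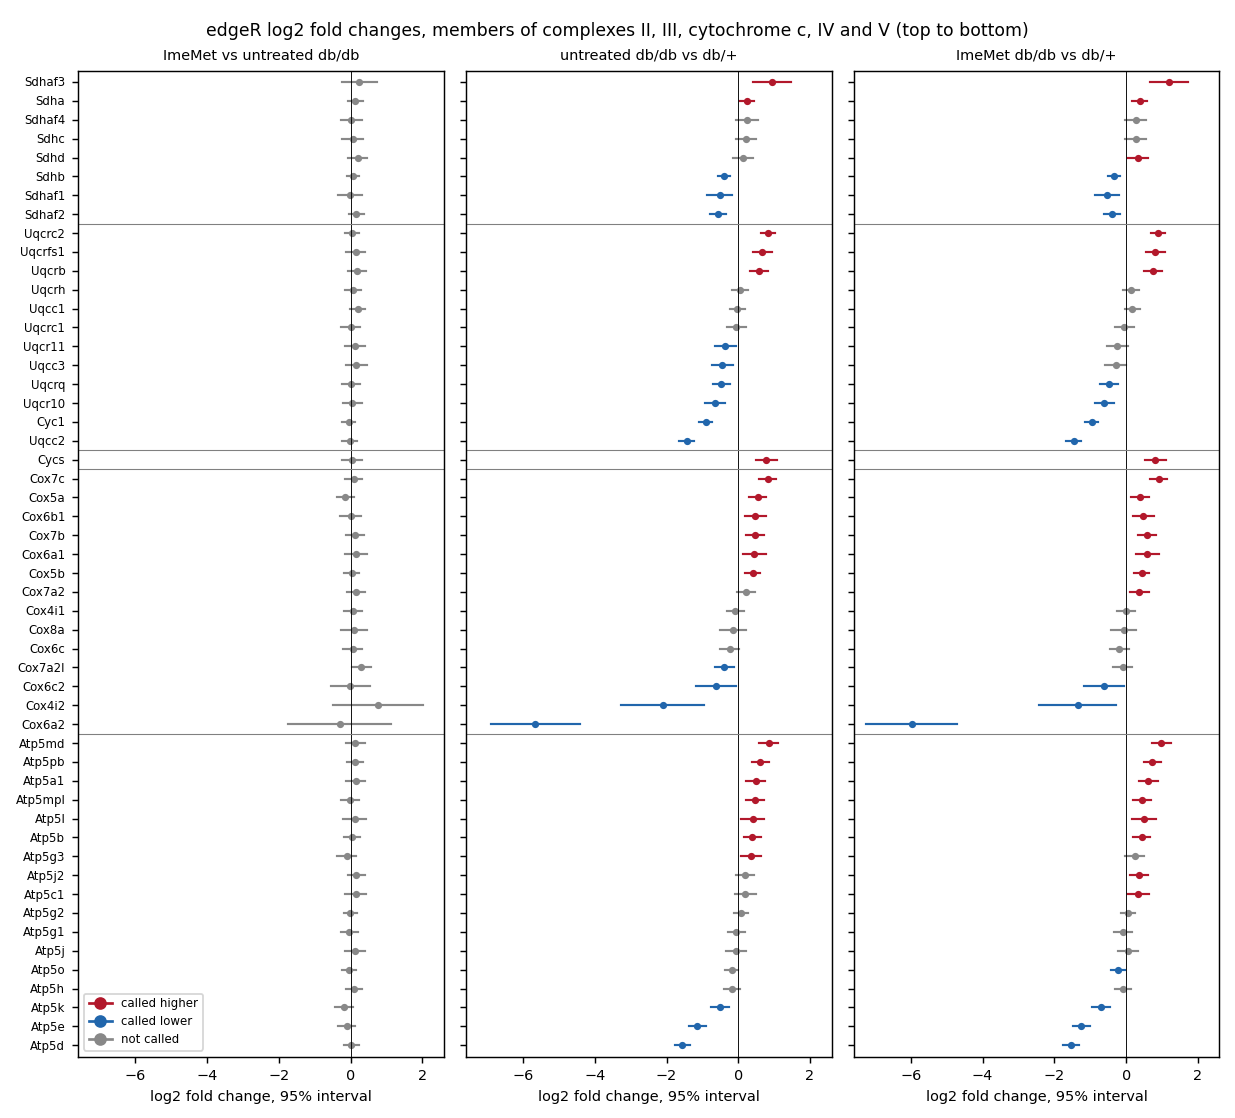
edgeR log2 fold changes (points) with 95% intervals (bars) of the 52 tested members for treated over untreated db/db (left), untreated db/db over db/+ (centre) and treated db/db over db/+ (right); red and blue mark calls at an adjusted p under 0.05. No member is called in the left panel, where most bars cross 0 and are short, while the centre and right panels hold 35 and 36 calls.

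Fold changes of the members went with the GC content of their transcripts, available for 50 of the 52 tested members. Across genes, Spearman's rho of the untreated db/db over db/+ log2 fold change with GC content was -0.48 over 50 members and -0.26 over 15531 tested genes; for treated over untreated db/db it was -0.17 over the members and -0.17 over all genes. Genes of a library are not independent, and these values share the libraries, their depth and their base composition. After subtracting the median fold change of all genes in the same of 20 GC bins, Cox6a2 (-5.65), Atp5e (-1.31), Uqcc2 (-1.24) and Atp5d (-1.16) were with Cox4i2 (-1.77) the lowest 5 members in untreated db/db over db/+ islets. Cyc1, with a GC-rich transcript, had -0.33 after the subtraction and -0.90 before it. Uqcr11, also GC-rich, had 0.21 after and -0.36 before it, a turn of sign with no test on these values. The GC-rich Cox6a1 had 1.02 after and 0.45 before it, and the GC-poor Cox7c 0.44 and 0.82. The part of GC content in the fold changes was not tested.

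**Figure D5:**
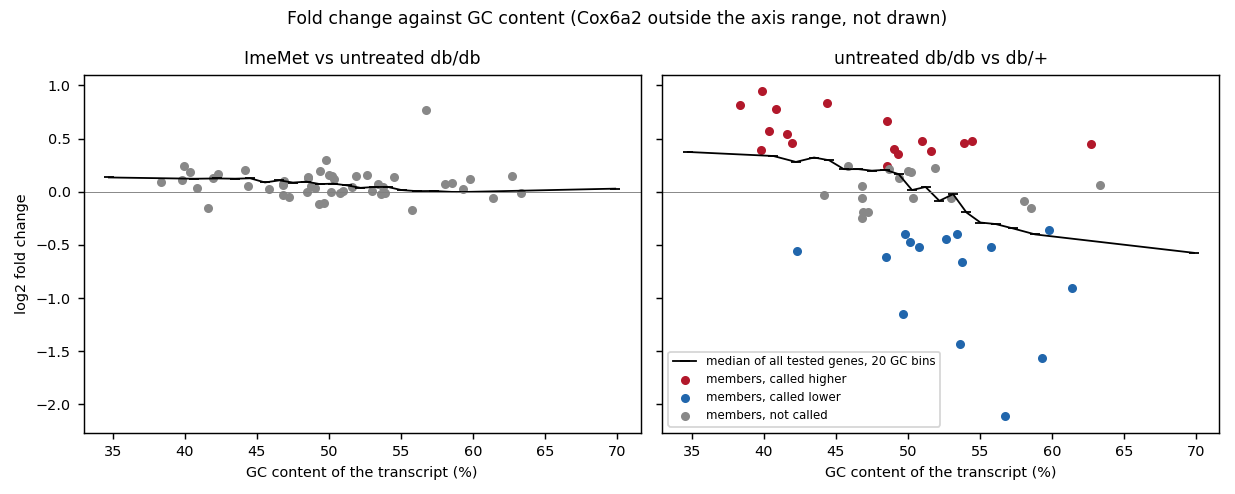
log2 fold change (y axis) of members against the GC content of their transcripts in percent (x axis), for treated over untreated db/db (left) and untreated db/db over db/+ (right); the line joins medians of all tested genes in 20 GC bins. In the right panel the line falls with GC content and calls lie on either side of it; Cox6a2 is outside the drawn range.

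Other genes of the pathway were called in both directions, and their counts stand against 32.8% of all genes called higher and 32.5% lower in treated db/db, and 31.3% higher and 32% lower in untreated db/db islets. Of 29 assembly factors of complexes III and IV, 10 were called higher and 10 lower in treated db/db, and 7 higher and 10 lower in untreated db/db islets, all against db/+, which is near the share of all genes. Cox10, which makes the heme of complex IV, fell (-1.51 in treated and -1.19 in untreated db/db islets), while Cox15, which carries out the following step, rose (0.94 and 0.83). Pet117 (1.73), Coa5 (0.99) and the copper chaperone Sco2 (0.99) were higher in untreated db/db islets, and Coa7 (-1.28), the copper-handling Cox19 (-1.06) and Coa3 (-0.90) were lower. Of 6 ATP synthase assembly genes 3 were higher and 2 lower in treated db/db, and 2 higher and 3 lower in untreated db/db islets. Atpaf1, a chaperone of the beta subunit, rose (1.34 in treated and 1.05 in untreated db/db islets), and Atpaf2, a chaperone of the alpha subunit, fell (-0.50 and -0.62). Of 16 tested regulators 6 were higher and 4 lower in either db/db group. Gabpa, the DNA-binding subunit of GABP, rose (1.42 in treated and 1.25 in untreated db/db islets), though it overlaps Atp5j on the other strand, which was not called. Tfam, which packages mitochondrial DNA, rose (0.81 and 0.73), Nrf1 fell (-0.32 and -0.53), and Ppargc1a was not called (0.11 in untreated db/db islets, 95% interval -0.56 to 0.78). Of 13 mitochondrial import and mass genes 6 were higher in either db/db group, Cs among them (0.51 in untreated db/db islets), 4 were lower in treated db/db and 5 in untreated db/db islets, Timm44 among them (-1.37). None of these other genes was called between treated and untreated db/db islets with edgeR. At an unadjusted p under 0.05 there were 3 of the 29 assembly factors, 2 of the 16 regulators and 0 genes of the ATP synthase assembly and import lists, against 17.4% of all genes.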

How the data were processed

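RNA of mouse islets was extracted on columns and made into strand-preserving libraries, per the labels' protocols. Per the submitters' processing notes the tools were cutadapt 1.9.1, HISAT2 2.2.1 and featureCounts 2.0.0 on build GRCm39. The deposited table held the authors' raw counts for 139023 RefSeq transcript rows. The sources used here give neither the strand setting nor the handling of multi-mapping reads. For each symbol the transcript row with the highest total was kept (33 members had 1 row). Genes passing edgeR's low-count filter were tested in R 4.3.3 with edgeR 4.0.16 (TMM, robust quasi-likelihood, 3 group means, Benjamini-Hochberg over 16761 genes), after a check on simulated data. DESeq2 1.42.0 and limma 3.58.1 (voom) were among 17 alternatives. Shares and ratios used exact two-sided permutation tests (scipy 1.17.1). Exon overlaps and GC content came from GENCODE M21 (GRCm38) by symbol. Members were named by largest called change per complex and direction, catalytic role and tissue-restricted form; further members and the examples from other lists were chosen after their values were seen. Members and lists were chosen with earlier results of these data known. Per-library depth limits genes of few reads, and other counting error is part of the spread between libraries.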

Additional observations from a re-analysis of the deposited data

How the results depend on the processing

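No member turned sign in a called comparison under the 17 alternative settings of the test; 26 of 35 calls in untreated db/db over db/+ and 25 of 36 in treated db/db over db/+ were kept in every one of them that tested the gene (Cox4i2 was tested in 16 of the 17 for untreated db/db over db/+). Upper-quartile scaling shifted the all-gene median by 0.107 (log2) in untreated db/db over db/+. Between treated and untreated db/db islets 0 members were called under each of the 17, which tested 51 to 56 of them. Over all genes that comparison was unstable: 1 gene was called higher and 29 lower, against 134 and 496 with DESeq2, 12 and 215 with no filter, 0 and 10 with limma voom, 0 and 9 with transcripts summed, and 0 and 0 with only those groups fitted. With RLE or upper-quartile factors 0 were higher, and leaving out 1 library gave 0 to 67 higher and 6 to 370 lower, both highest without untreated db/db replicate 2. The labels do not say that a replicate number pairs libraries. Same-numbered deviations correlated at -0.43 to 0.06 and others at -0.30 to 0.44, and not every library correlated best with its own number. Deviations from means of 3 libraries cannot exclude a shared litter, day or batch. With the replicate block 17 members were called higher and 14 called lower for untreated db/db over db/+, 20 and 11 in treated db/db over db/+ and 0 between the db/db groups, while 115 of all genes were lower in treated db/db islets. Of all 16761 genes that setting called 10050 in untreated db/db over db/+ and 10437 in treated db/db over db/+. After subtraction of the GC-bin median, a step chosen after seeing the data, Uqcr11 turned to 0.21 in untreated db/db over db/+. With no scaling factor the log2 ratios of complex sums were, for treated over untreated db/db, 0.0423 for complex II, -0.0154 for complex III, -0.0026 for complex IV and -0.0126 for complex V. For untreated db/db over db/+ they were 0.39 for complex II, 0.16 for complex III and 0.32 for complex V, and for treated db/db over db/+ 0.44 for complex II. Share differences against db/+ in percentage points, with no length scaling, were -64.4 in untreated and -65.0 in treated db/db islets for Cox6a2, and -1.03 and -0.899 for Cox7a1. With transcripts summed they were -4.01 in untreated and -3.49 in treated db/db islets for Cox7a1, and in untreated db/db islets -6.50 for Atp5g1 and 7.28 for Atp5g3. The rows of a member with several rows held nearly the same total (median lowest to highest 0.999). Summing therefore counts such a gene about as often as it has rows. Cox7a1 had 2 rows and Cox7a2 1, and Atp5g1, Atp5g2 and Atp5g3 had 3, 1 and 5. Why values moved under the other settings was not tested. Genes of few reads, such as Cox4i2 and the untested isoforms, are limited by depth.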
